A study of Mus musculus with 8 samples.

Results

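Cholesterol and fatty acid synthesis genes were followed in neutrophils that had entered the inflamed spinal cord. The set holds 32 genes out of 23369 in the count table and was given by name: 8 enzymes of the mevalonate pathway up to squalene, 8 enzymes from squalene to cholesterol, 5 genes for the SREBP transcription factors and their control, 6 enzymes of fatty acid synthesis and desaturation, and 5 genes of the LXR receptors, cholesterol efflux and control of lipoprotein uptake. The rule names the genes by pathway and uses no measured value, although the set was proposed with earlier results of these data known. All 32 were found in the table, and 31 passed the filter on low counts; Scd1 did not. The cells came from mice of the strain C57BL/6N in which experimental autoimmune encephalomyelitis (EAE) had been induced, a model of multiple sclerosis in which the immune system attacks the central nervous system, and both groups had the disease. One group was harvested at ZT1 (1 hour after lights-on, n = 4) and the other at ZT13 (13 hours after lights-on, n = 4), and between 11000 and 50000 cells per mouse were sorted as CD45+, CD11b+ and Ly6G+. No healthy mice, blood neutrophils or further times of day are among the samples. No source used here gives ages or sexes, or says whether a sample is 1 mouse or a pool. The comparison asks whether RNA levels of sterol and fatty acid genes in these cells differ between these 2 times of day.

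Cells make cholesterol from acetyl-CoA through mevalonate, isoprenoid units, squalene and lanosterol, and they make fatty acids from the same acetyl-CoA through malonyl-CoA. When sterols in the endoplasmic reticulum run low, SCAP carries the SREBP precursors to the Golgi, where proteases release the active transcription factors, and when sterols are plentiful the INSIG proteins hold SCAP back. Oxysterols activate the LXR receptors, which turn on the transporters ABCA1 and ABCG1 that export cholesterol and the ubiquitin ligase MYLIP (IDOL) that limits lipoprotein uptake. SREBPs bind sterol response elements in promoters, usually together with NF-Y, which binds CCAAT boxes.

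The promoters of 26 of the 32 genes were in a RefSeq table (GRCm38.p6), as 35 windows from 250 bases before to 50 bases after an annotated start. Printed 5′ to 3′ on the gene's strand are the 250 bases before the start of 3 genes, 1 each of sterol synthesis, fatty acid synthesis and LXR-driven efflux, to show which of the letters read by these factors stand there. Hmgcs1 lies at chr13:119690101-119690350 (plus strand), Fasn at chr11:120824548-120824797 (minus) and Abca1 at chr4:53159896-53160145 (minus). Capitals mark a sterol response element (TCACNCCAC), CCAAT boxes (CCAAT) and E-boxes (CACGTG, letters bound by basic helix-loop-helix factors, the family that SREBPs belong to), each searched on both strands, so that ATTGG is a CCAAT box on the other strand.
Hmgcs1: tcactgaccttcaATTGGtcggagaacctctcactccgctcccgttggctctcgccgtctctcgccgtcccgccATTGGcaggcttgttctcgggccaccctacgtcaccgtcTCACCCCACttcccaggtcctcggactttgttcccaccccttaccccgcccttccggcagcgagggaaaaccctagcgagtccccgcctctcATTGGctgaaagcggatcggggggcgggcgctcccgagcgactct
Fasn: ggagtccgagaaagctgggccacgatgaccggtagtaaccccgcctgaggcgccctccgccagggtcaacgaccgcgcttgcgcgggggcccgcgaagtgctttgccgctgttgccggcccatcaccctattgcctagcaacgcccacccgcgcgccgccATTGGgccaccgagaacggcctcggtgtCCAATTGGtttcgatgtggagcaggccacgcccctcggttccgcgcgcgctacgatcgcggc
Abca1: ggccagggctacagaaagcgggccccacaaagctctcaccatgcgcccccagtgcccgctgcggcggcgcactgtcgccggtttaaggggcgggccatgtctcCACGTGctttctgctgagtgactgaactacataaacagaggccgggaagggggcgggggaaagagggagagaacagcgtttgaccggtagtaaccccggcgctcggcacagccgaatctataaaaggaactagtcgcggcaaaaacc

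The Hmgcs1 window held TCACCCCAC from position -137 (with the first transcribed base as 0) and CCAAT boxes on the other strand from -237, -176 and -45, and 1 after the start, from 10, which is outside the printed bases. Among the 26 genes it was the only one with these sterol response letters, against 1.44% of all genes in the promoter table. The Fasn window held CCAAT boxes from -90, -62 and -59, of which the last pair overlap. In all, CCAAT boxes stood in the windows of 19 of the 26 genes, against 41.1% of all genes, among them Cyp51, Msmo1 (from -160, -96 and -55), Insig1 and Acly. The Abca1 window held an E-box from -147, and 6 of the 26 genes had one, against 8.09% of all genes. Of the direct repeat with a 4-base spacer that LXR binds (DR4), only the exact consensus was searched. It was in no window of the set and in 0.01% of all genes. A match describes letters and not binding, and sites outside these windows were not searched. Forms that differ from the letters given were not searched either, so a window without a match may still hold a variant sterol response or LXR element.

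The 8 libraries held 46152067 to 67873023 counts. By counting error alone, a gene with 0 counts may still stand at up to 3 counts, or 0.0442 to 0.0650 CPM (reads scaled to the size of the library). The spread between libraries is not in that bound: Lss had 0 counts in ZT13 replicate 3 and 105 to 426 in the other libraries. Neutrophil genes marked the sort: Ly6g averaged 369 CPM at ZT1 (SD 108, n = 4) and 485 CPM at ZT13 (SD 24.2, n = 4). Values written with ± below are means and SDs of 4 libraries unless stated otherwise, ZT1 before ZT13, and beside a log2 fold change (ZT13 over ZT1) ± gives the SE. The ZT13 libraries had fewer detected genes (13945 to 15751, against 15760 to 17701 at ZT1; p = 0.0286 in an exact permutation test, two-sided, and no smaller p is possible with these group sizes), and ZT13 replicate 3 had the fewest. The summed CPM of 14 neutrophil markers was 139500 to 179000 at ZT1 and 182400 to 231300 at ZT13, without overlap (exact permutation p = 0.0286). Abundant genes weigh most in this sum: S100a8 averaged 25200 and 39080 CPM, S100a9 27590 and 41790, and Ngp 35360 and 44620. The markers did not all differ alike: Ltf averaged 33450 and 34190 CPM and Itgam 482 and 488. At an unadjusted p under 0.05 in edgeR 5 were higher at ZT13 and 1 lower, and 0 passed after adjustment. Over all genes tested these shares were 4.35% and 4.85%. The lower one, named here after its values were seen, was Csf3r, the receptor gene for granulocyte colony-stimulating factor, at 1904 ± 230.3 and 1559 ± 130.3 CPM. CPM values below are scaled with TMM factors, and the labels do not say whether a sample is 1 mouse or a pool, or whether animals were housed or induced together, so p-values measure the spread between these samples.

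Levels per exon length differed widely within the set. On that scale (TPM, from counts per base of annotated exon), Acly, the ATP citrate lyase that makes cytosolic acetyl-CoA, was highest at 167 ± 35.7 TPM (mean ± SD over all 8 libraries). Nr1h2, which encodes LXRβ, followed at 89.0 ± 21.5 TPM. The next were Msmo1 at 51.9 ± 7.88, Hmgcs1 at 39.9 ± 8.85, Cyp51 at 38.8 ± 9.16 and Srebf2, the SREBP that drives sterol genes, at 38.0 ± 5.35 TPM. The ranges over libraries of Acly and Nr1h2, and of Nr1h2 and Msmo1, did not overlap, whereas the other 29 pairs of neighbours in the order did.

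The lipogenic end of the pathway was low per length beside Acly. Acaca (acetyl-CoA carboxylase 1) stood at 0.346 ± 0.162 TPM, Fasn (fatty acid synthase) at 1.75 ± 0.622, and Elovl6, which elongates saturated fatty acids, at 1.57 ± 0.779. Of the stearoyl-CoA desaturases, Scd2 stood at 13.2 ± 4.41 TPM and had 752 to 2777 counts in each library. Scd1 had 11 counts in ZT1 replicate 4 and 0 in the other 7 libraries. Of the 50-base windows of the Scd1 transcript, 4.66% also occur in another gene's transcript, mainly of Scd3, and of those of Scd2 4.01%. Among the LXR genes, Nr1h3 (LXRα) stood at 1.16 ± 0.971 TPM, with 0 counts in ZT13 replicates 1 and 3, below Nr1h2 in every library. With the longest annotated transcript in place of all exons, the order changed by at most 3 places.

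**Figure D1:**
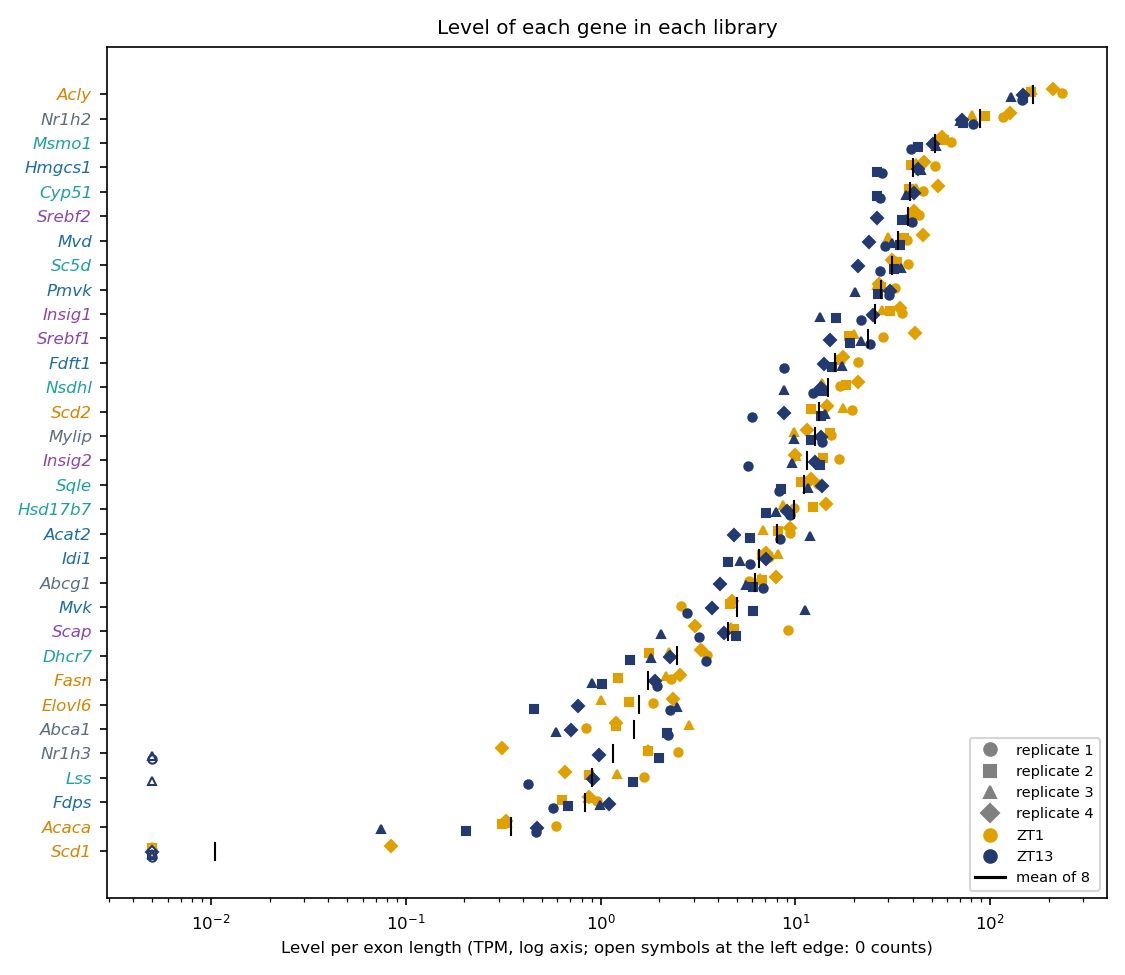
Level per exon length of the 32 genes (log axis, TPM), 1 symbol per library with the shape for the replicate and the colour for the time point; black ticks are means over 8 libraries and gene names are coloured by role (blue and green for sterol synthesis, purple for SREBP control, orange for fatty acids, grey for LXR, efflux and uptake). Acly at 167 and Nr1h2 at 89.0 TPM stand above the rest, and Scd1 is listed at 0 in 7 libraries (open symbols).

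Some of these counts are shared with near-identical sequences, and no source used here says how the counting treated such reads. Of the 50-base windows of the longest Acaca transcript, 52.6% also occur in transcripts of another gene (Gm5182). The share was 45.9% for Acat2 (Acat3 and the overlapping Tcp1), 30.7% for Fdft1 (mainly the overlapping Ctsb) and 30.5% for Idi1. Hmgcs1 had 13.6%, Scap 13.1% and Fdps 11.7%, and the other genes had 4.66% or less. Levels of these 7 genes are uncertain to that extent, Fdps in particular, which had only 54 to 109 counts per library.

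No gene of the set differed between ZT13 and ZT1 past the threshold. In edgeR's quasi-likelihood test with Benjamini-Hochberg adjustment over 12610 genes, 0 of the 31 tested members and 0 of all genes (0%) had an adjusted p under 0.05, and the smallest among the members was 0.5045. At an unadjusted p under 0.05 stood 2 members, Insig1 and Nr1h2, both lower at ZT13, against 4.85% of all genes in that direction and 9.20% in either, and 0 members were higher, against 4.35%. The count of 2 was 0 without ZT13 replicate 2, 1 without ZT1 replicate 1, 3 or 4 or ZT13 replicate 3, and 3 without ZT13 replicate 4. DESeq2 called 256 genes (1.70% of those it tested, 0.605% higher and 1.10% lower at ZT13), limma-voom called 0, and neither called a member. The log2 fold changes of the members ran from -0.89 to 0.76 with a median of -0.07, and 22 of 31 (71.0%) were negative, beside a median of -0.02 and 52.3% over all genes tested. Only Nr1h2 separated the 4 libraries of one time from the 4 of the other, where 5.66% of all genes did so, 2.66% with ZT13 above and 3.00% with ZT13 below.

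For most members these data bound the size of a difference. The 95% interval of the log2 fold change lay within 2-fold in either direction for 22 of the 31 members, against 54.9% of all genes tested. Among genes averaging 5 or more CPM it did so for 22 of 26 members (84.6%) and for 82.9% of all genes, so the members were close to other genes of like abundance. Among the tightest were those of Acly (-0.37 to 0.02) and Srebf2 (-0.33 to 0.27). The widest were those of Nr1h3 (-4.21 to 2.44) and Lss (-2.78 to 1.88), both with libraries at 0, for which a 2-fold difference was not detectable. These are intervals for single genes and are not adjusted for the number of genes. In RNA from many cells, fewer cells of one kind and less RNA per cell cannot be told apart.

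**Figure D2:**
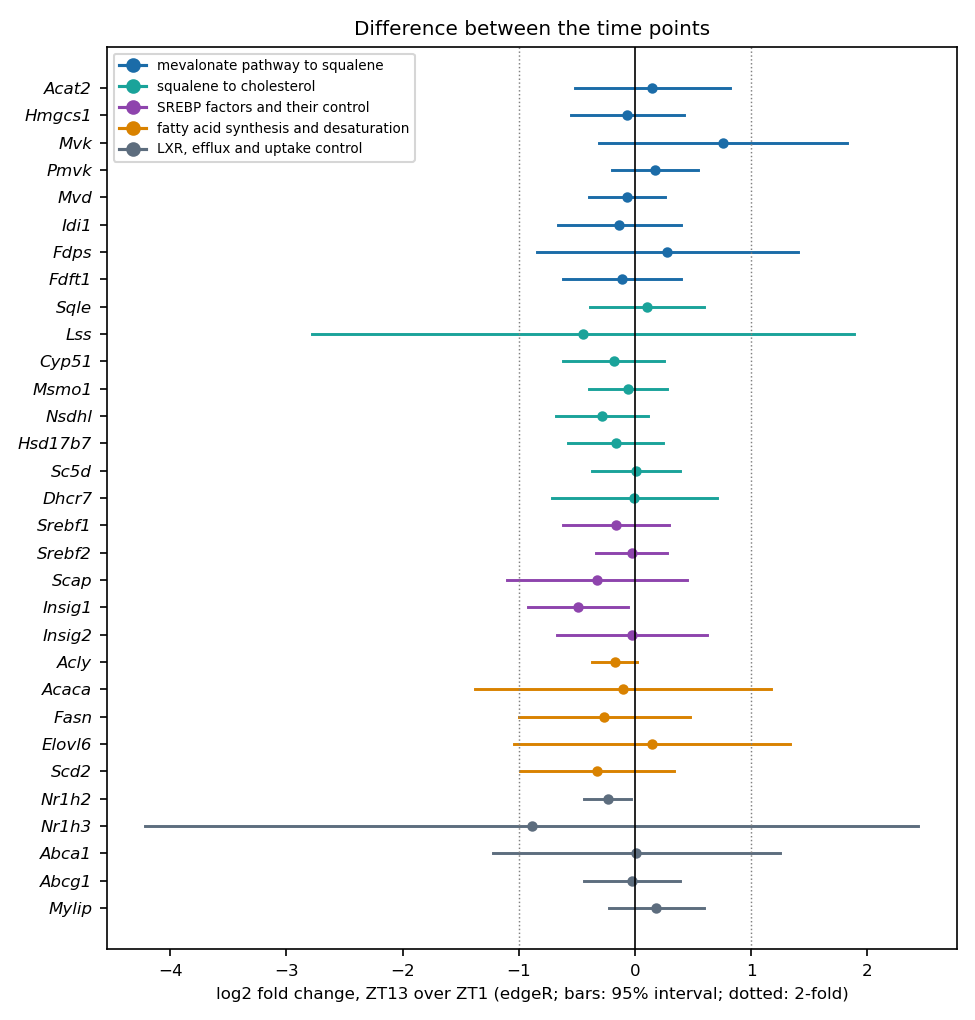
log2 fold change of ZT13 over ZT1 for the 31 tested genes with 95% intervals from edgeR, coloured by role; dotted lines mark 2-fold. All intervals except those of Insig1 and Nr1h2 include 0, and 22 of the 31 lie inside the dotted lines.

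In the mevalonate arm 4 genes had a higher and 4 a lower mean at ZT13, and 0 passed. Hmgcs1, the HMG-CoA synthase that opens the committed pathway, stood at 88.0, 78.2, 92.6 and 77.6 CPM in ZT1 replicates 1 to 4 and at 58.2, 55.2, 106.5 and 101.2 in ZT13 replicates 1 to 4. The ZT13 libraries lay on both sides of all ZT1 libraries, replicates 1 and 2 below and replicates 3 and 4 above. Its log2 fold change was -0.07 ± 0.22 (SE; edgeR adjusted p = 0.962). Fdft1, squalene synthase, stood at 32.3, 30.5, 34.8 and 27.7 CPM at ZT1 and at 16.7, 30.1, 38.4 and 30.6 at ZT13, with ZT13 replicate 1 below and replicate 3 above every ZT1 library. Its log2 fold change was -0.12 ± 0.23 (adjusted p = 0.934).

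The remaining 6 genes of this arm had log2 fold changes between -0.14 (Idi1, isopentenyl diphosphate isomerase) and 0.76 (Mvk, mevalonate kinase). Mvk stood at 2.53 to 6.06 CPM at ZT1 and 3.37 to 15.6 at ZT13, and the highest value was that of ZT13 replicate 3 alone. Without that library its log2 fold change was 0.19. Pmvk (phosphomevalonate kinase) stood at 19.9 ± 2.01 and 22.45 ± 3.76 CPM, and Mvd (mevalonate diphosphate decarboxylase) at 28.3 ± 2.53 and 26.9 ± 3.74. Acat2, an acetyl-CoA acetyltransferase, stood at 8.39 to 9.02 CPM in the ZT1 libraries and at 6.40 to 15.9 at ZT13, again highest in replicate 3. The low-count Fdps (farnesyl diphosphate synthase) stood at 1.44 ± 0.251 and 1.75 ± 0.647 CPM.

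From squalene to cholesterol, the same ZT13 libraries were low and high for several enzymes. Sqle, the squalene epoxidase and a rate-controlling step, stood at 26.4, 25.65, 30.5 and 24.6 CPM at ZT1 and at 20.65, 21.6, 33.6 and 39.3 at ZT13. Cyp51, the lanosterol demethylase, stood at 73.3, 73.15, 89.3 and 88.8 CPM at ZT1 and at 54.4, 53.5, 84.9 and 93.1 at ZT13. For Sqle, as for Hmgcs1, ZT13 replicates 1 and 2 lay below and replicates 3 and 4 above all ZT1 libraries, and for Cyp51 replicates 1 and 2 lay below, replicate 3 among and replicate 4 above them. Msmo1, the sterol C4-methyl oxidase, stood at 141.4, 154.9, 159.3 and 128.8 CPM at ZT1 and at 109.3, 120.2, 168.9 and 161.1 at ZT13. It had the same order, with replicates 1 and 2 below and replicates 3 and 4 above the ZT1 range. Their log2 fold changes were 0.10 ± 0.22 (Sqle), -0.18 ± 0.19 (Cyp51) and -0.06 ± 0.15 (Msmo1), with edgeR adjusted p of 0.940, 0.839 and 0.946. That of Cyp51 was -0.07 without ZT13 replicate 2 and -0.34 without ZT13 replicate 4.

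Not every enzyme of this arm followed that order. Sc5d (lathosterol desaturase) was highest in ZT13 replicate 3, at 88.2 CPM, and lowest in replicate 4, at 52.9. Nsdhl, a sterol dehydrogenase in C4 demethylation, was lowest in ZT13 replicate 3, at 13.1 CPM, and Hsd17b7, the keto-reductase of the same complex, stood at 16.6 to 24.0 at ZT13 and 18.4 to 27.2 at ZT1. Dhcr7, which makes cholesterol from its last precursor, stood at 3.80 to 9.20 CPM at ZT13 and 4.49 to 7.504 at ZT1. Lss, lanosterol synthase, was listed at 0 in ZT13 replicate 3 and at 2.07 to 7.25 CPM in the other 7 libraries. None of the 5 passed, with edgeR adjusted p from 0.7005 to 0.996.

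**Figure D3:**
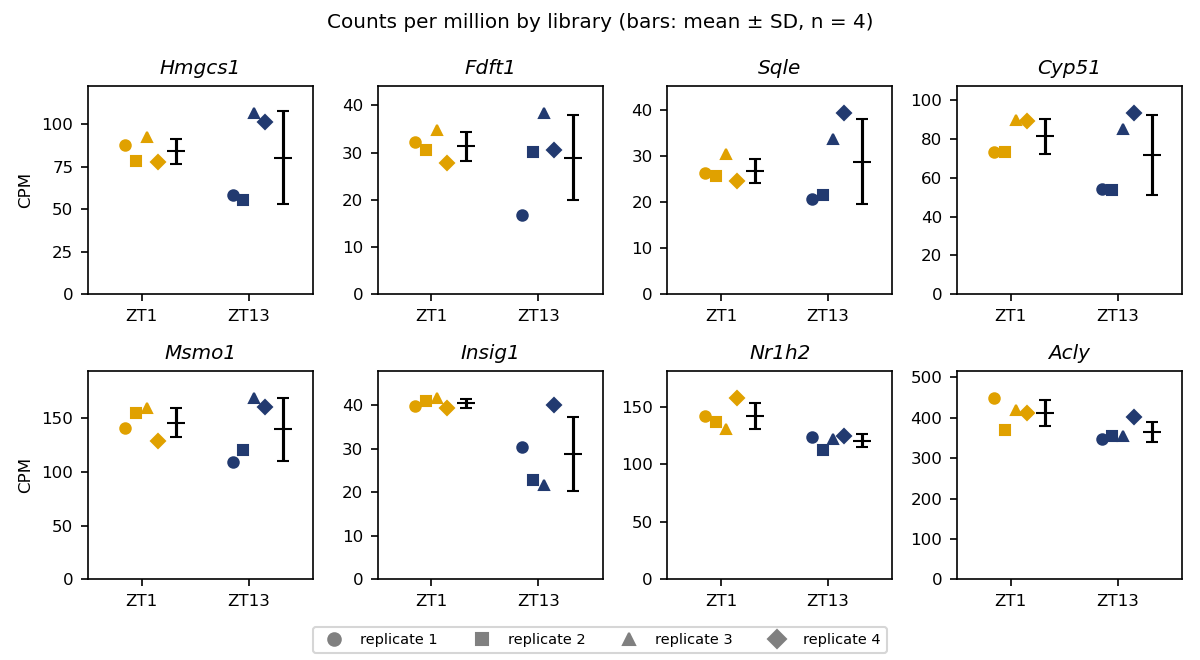
TMM-scaled CPM per library for 8 genes, each on its own linear axis from 0; symbols are replicates 1 to 4 of ZT1 (yellow) and ZT13 (blue), and black bars are mean ± SD (n = 4). For Hmgcs1, Sqle and Msmo1 the ZT13 libraries lie on both sides of the ZT1 libraries, for Insig1 ZT13 replicate 4 lies among them, and for Nr1h2 all 4 lie below.

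The spread within ZT13 was wider than within ZT1 for the sterol enzymes. The coefficient of variation (CV, SD over mean of CPM) was larger at ZT13 for 15 of the 16 genes of both arms, all except Hsd17b7, against 65.4% of all genes tested. The median CV of the 16 was 11.6% at ZT1 and 29.9% at ZT13, beside 21.3% and 26.7% over all genes. Among all genes averaging 5 or more CPM, the CV was larger at ZT13 for 60.9%, and the median CVs were 15.7% and 18.6%. Hmgcs1 had 8.77% and 34.0%, Sqle 9.61% and 31.7%, and Acat2 3.05% and 45.1%. The 8 genes of the mevalonate arm had a median deviation from their own mean of -0.31, -0.11, 0.40 and 0.20 log2 CPM in ZT13 replicates 1 to 4 and of -0.10 to 0.17 in the ZT1 libraries. For the 8 genes after squalene these were -0.21, -0.28, 0.07 and 0.17 at ZT13 and -0.01 to 0.17 at ZT1. With any 1 library left out the count of 16 was between 14 and 16, and the share of all genes between 57.7% and 70.2%. The count was made after the values were seen, the genes of one pathway are not independent, and it has no test.

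Other features of the ZT13 libraries ran alongside. The summed CPM of the 19 microglia and macrophage markers was 1512, 1685, 1084 and 1233 in ZT13 replicates 1 to 4, lower in the libraries where Hmgcs1, Sqle, Cyp51 and Msmo1 were high. Other sterol enzymes did not have that order, such as Nsdhl and Pmvk, lowest of the ZT13 libraries in replicate 3, and Sc5d, Mvd and Acat2, lowest in replicate 4. In the microglia and macrophage sum 2 genes weighed most. Csf1r stood at 534.1, 537.8, 367.7 and 410.7 CPM in ZT13 replicates 1 to 4, and Ccr2 at 423.5, 491.2, 304.7 and 309.1. Cd68 had another order, at 213.7, 255.2, 199.6 and 262.1 CPM. At ZT1 the sum was 1392 to 1848, highest in replicate 3, where Hmgcs1, Sqle and Msmo1 were also highest among the ZT1 libraries. The neutrophil marker sum was 182400, 186100, 231300 and 208800 in ZT13 replicates 1 to 4. The part of these in the spread was not tested.

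**Figure D4:**
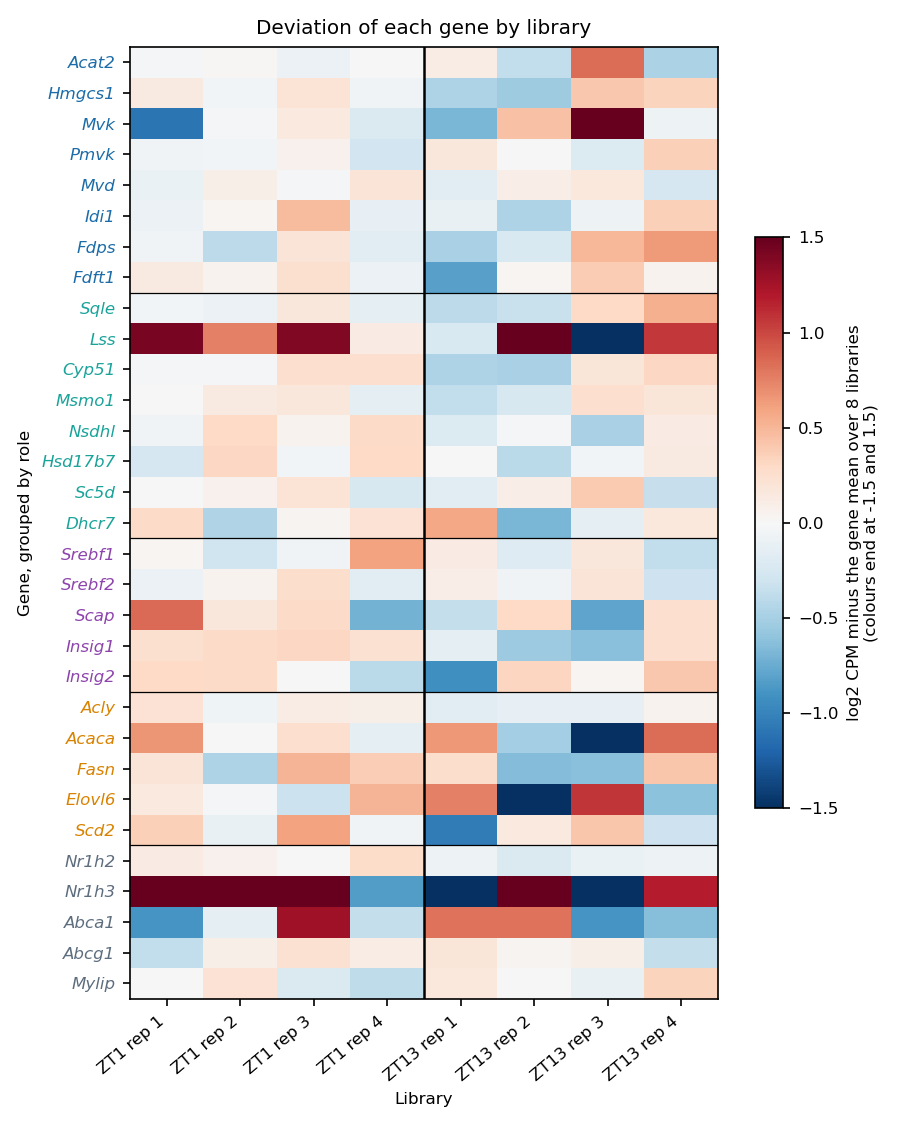
Deviation of log2 CPM from the gene's mean over 8 libraries for the 31 tested genes (rows, grouped and coloured by role) in the 8 libraries (columns, ZT1 left of the line); red is above and blue below the mean. Hmgcs1, Sqle, Cyp51 and Msmo1 are blue in ZT13 replicates 1 and 2 and red in replicates 3 and 4, while Insig1 is blue in replicates 1 to 3.

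**Figure D5:**
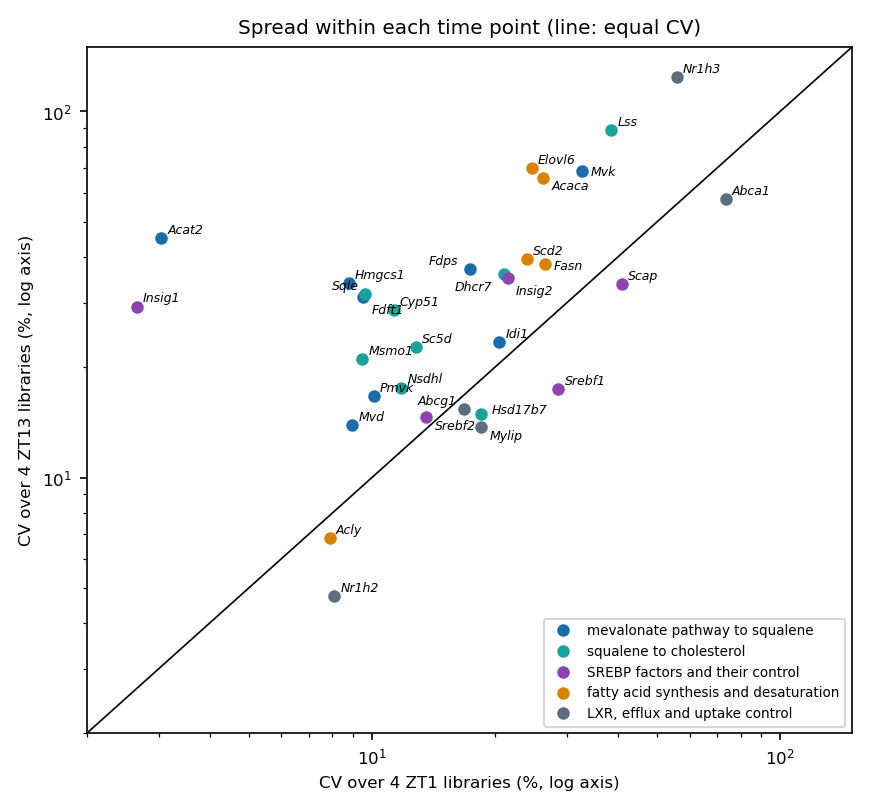
CV over the 4 ZT13 libraries against the CV over the 4 ZT1 libraries for the 31 tested genes (both axes logarithmic, %), coloured by role; on the line both are equal. Of the 16 sterol synthesis genes 15 lie above the line, and Nr1h2 and Acly lie below it with CVs under 10%.

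Among the 5 genes of the set for SREBP factors and their control, Insig1 had the lowest unadjusted p. Insig1 (ENSMUSG00000045294.12, chromosome 5 from 28071363 to 28078662 on GRCm38, protein-coding) stood at 39.7, 41.0, 41.6 and 39.3 CPM at ZT1 and at 30.5, 22.9, 21.7 and 40 at ZT13. The ZT1 libraries lay within 3 CPM of each other, with a CV of 2.65%, and 3 of the 4 ZT13 libraries lay below them, while replicate 4 lay among them. The log2 fold change was -0.49 ± 0.19 (SE; 95% interval from -0.92 to -0.06; unadjusted p = 0.0299 and adjusted p = 0.508 in edgeR). Without ZT13 replicate 4 it was -0.69 and without ZT13 replicate 3 -0.38. ZT13 replicate 3, high for Hmgcs1, Sqle and Msmo1, had the lowest Insig1 value, and this is where Insig1 and those enzymes, all known SREBP targets, ran apart.

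The other 4 control genes gave no difference past the threshold. Srebf2 stood at 113.5, 126.0, 145.8 and 107.8 CPM at ZT1 and at 129.3, 117.1, 138.6 and 97.7 at ZT13, ranges that overlap almost fully (log2 fold change -0.03 ± 0.14). Srebf1, whose products drive fatty acid genes, stood at 45.9 to 86.2 CPM at ZT1 and 43.8 to 63.7 at ZT13 (-0.16 ± 0.20). Its highest value was that of ZT1 replicate 4. Scap, the escort of SREBP, stood at 16.5 ± 6.75 and 13.1 ± 4.42 CPM (-0.33 ± 0.35), and its log2 fold change was -0.06 without ZT1 replicate 1 and -0.55 without ZT1 replicate 4. Insig2, the second retention protein, stood at 18.0 ± 3.87 and 17.6 ± 6.17 (-0.03 ± 0.29). All 5 genes of the group had negative log2 fold changes, beside 52.3% of all genes tested.

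Fatty acid synthesis genes overlapped between the times. Acly (ENSMUSG00000020917.18, chromosome 11 from 100476353 to 100528000) stood at 448.4, 369.6, 418.6 and 411.5 CPM at ZT1 and at 347.2, 355.8, 354.9 and 401.8 at ZT13. ZT13 replicates 1 to 3 lay below all ZT1 libraries, and replicate 4 lay among them. The log2 fold change was -0.18 ± 0.09 (unadjusted p = 0.0742, adjusted p = 0.589 in edgeR). Fasn stood at 9.24 ± 2.46 and 7.69 ± 2.95 CPM, Acaca at 2.69 ± 0.707 and 2.51 ± 1.65, and Elovl6 at 4.27 ± 1.05 and 4.72 ± 3.30. Scd2 stood at 28.4 to 46.6 CPM at ZT1 and 14.8 to 40.7 at ZT13, lowest in ZT13 replicate 1 (-0.33 ± 0.30; -0.12 without that library and -0.55 without ZT13 replicate 3). Fasn and Acaca were low together in ZT13 replicates 2 and 3, at 5.11 and 5.205 CPM for Fasn and 1.6 and 0.663 for Acaca. Their values in ZT13 replicates 1 and 4 were 9.67 and 10.8, and 3.625 and 4.155 CPM. Fasn and Acaca thus had another order of the ZT13 libraries than Hmgcs1 and Sqle.

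Of the LXR, efflux and uptake genes, Nr1h2 was lower in every ZT13 library. Nr1h2 (ENSMUSG00000060601.14, chromosome 7 from 44549616 to 44553951) stood at 142.4, 137.0, 130.9 and 157.7 CPM at ZT1 and at 124.3, 112.3, 122.2 and 124.4 at ZT13. The gap between the groups, 124.4 to 130.9 CPM, was narrow beside the range within ZT1. The log2 fold change was -0.23 ± 0.09 (95% interval from -0.44 to -0.03; unadjusted p = 0.0277, adjusted p = 0.5045 in edgeR), so it did not pass. Nr1h3 stood at 0.290 to 2.29 CPM at ZT1 and 0 to 2.30 at ZT13.

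The known LXR targets overlapped between the times. Abca1 stood at 3.20, 5.41, 14.4 and 4.61 CPM at ZT1 and at 10.4, 10.4, 3.20 and 3.80 at ZT13 (log2 fold change 0.01 ± 0.55). ZT1 replicate 3 had the highest value, ZT13 replicates 1 and 2 came next, and the other 5 libraries lay between 3.20 and 5.41 CPM. These 3 libraries were among the 4 with the largest sums of microglia and macrophage markers (1848, 1512 and 1685), the part of which was not tested. Without ZT1 replicate 3 the log2 fold change of Abca1 was 0.66. Abcg1 stood at 20.3 ± 3.42 and 19.9 ± 3.07 CPM (-0.03 ± 0.18), and Mylip at 17.1 ± 3.16 and 19.4 ± 2.66 (0.18 ± 0.18).

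Other genes of lipid metabolism, taken from lists written by pathway, also with earlier results known, gave no call either. Of 13 further sterol genes tested, 0 passed in edgeR and 1 stood at an unadjusted p under 0.05, Dhdds of dolichol synthesis, at 85.6 ± 1.59 CPM at ZT1 and 68.6 ± 9.19 at ZT13. Acat1, a mitochondrial acetoacetyl-CoA thiolase, stood at 34.7 ± 3.535 and 42.6 ± 9.545 CPM. Lbr, a sterol reductase that is also the lamin B receptor, was the most abundant of them per length, at 1008 ± 72.8 and 1046 ± 108 CPM. Of 14 further genes acting on SREBP, 0 passed. Mtor, a kinase that promotes SREBP activity, stood at 11.4 ± 1.01 and 18.0 ± 2.13 CPM (log2 fold change 0.66 ± 0.16, adjusted p = 0.373) without overlap, and Rnf139 (TRC8), a sterol-linked ubiquitin ligase, at 37.3 ± 1.88 and 28.75 ± 3.595 (-0.38 ± 0.13), also without overlap. Erlin2, of an endoplasmic reticulum complex that degrades sterol regulators, stood at 32.6 ± 1.86 and 25.3 ± 12.4 CPM.

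Of 30 further fatty acid and glycerolipid genes tested, 0 passed, with 2 higher and 2 lower at an unadjusted p under 0.05. Tecr, the last enzyme of the elongation cycle, stood at 177 ± 22.0 and 236 ± 18.3 CPM (0.42 ± 0.11, adjusted p = 0.396). Acsl4, which activates arachidonic acid, stood at 34.0 ± 3.84 and 22.9 ± 0.975 (-0.57 ± 0.13, adjusted p = 0.315), and Dgat1, which makes triacylglycerol, at 640 ± 102 and 451 ± 67.9 (-0.50 ± 0.14, adjusted p = 0.431). Each of the 3 separated the groups. Dgat1 was the most abundant of its list per length, at 409 TPM, above Acly.

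Of 24 genes of uptake, transport and storage, 0 passed, 1 stood higher and 4 lower at an unadjusted p under 0.05. The scavenger receptor gene Msr1 stood at 76.4 ± 11.1 and 51.9 ± 6.06 CPM (-0.56 ± 0.14, adjusted p = 0.346), and Soat1, which esterifies cholesterol, at 280.5 ± 18.8 and 227.5 ± 16.85 (-0.30 ± 0.09, adjusted p = 0.433), both without overlap. Pnpla2, the adipose triglyceride lipase, stood at 120 ± 15.5 and 170 ± 42.4 (0.50 ± 0.18), and the lipid droplet gene Plin2 at 439 ± 54.3 and 451 ± 57.8. Of 19 fatty acid oxidation genes 0 passed, and the 2 at an unadjusted p under 0.05 were the subunits of one electron carrier, Etfa at 40.7 ± 3.70 and 55.3 ± 6.19 CPM and Etfb at 6.29 ± 1.30 and 9.07 ± 0.925, both without overlap. Acadl, the long-chain acyl-CoA dehydrogenase and the most abundant of them per length, stood at 84.8 ± 6.54 and 100.5 ± 15.2. Of 13 further LXR genes 0 passed and 0 stood at an unadjusted p under 0.05 in edgeR. Cyp27a1, which makes an oxysterol, stood at 9.92 ± 3.47 and 6.51 ± 2.25 CPM, and the lipoprotein lipase gene Lpl at 10.4 ± 6.27 and 14.6 ± 2.29. The most abundant of them per length was the LXR target Smpdl3a, at 456 ± 45.5 and 473.5 ± 66.1 CPM. Beside these counts stand 9.20% of all genes at an unadjusted p under 0.05.

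RNA of other cells that make or export sterols was present to differing degrees. All 19 microglia and macrophage markers were in the table, the most abundant per length being Cd68, at 224 ± 37.8 and 233 ± 30.7 CPM, and Csf1r, at 554 ± 78.5 and 463 ± 86.5. Their sum of 1392 to 1848 CPM at ZT1 and 1084 to 1685 at ZT13 overlapped between the times (p = 0.286, exact permutation). Of the 18 tested, 3 were lower and 0 higher at ZT13 at an unadjusted p under 0.05 in edgeR, and 0 passed after adjustment. Over all genes tested 4.85% were lower and 4.35% higher at that mark. These 3, named after their values were seen, were Ccr2 at 506 ± 50.04 and 382 ± 91.2 CPM, Arg1 at 11.3 ± 12.7 and 0.153 ± 0.305, and Mrc1 at 1.17 ± 0.744 and 0.0337 ± 0.0674, the last without overlap. Arg1 stood at 17.8 and 26.0 CPM in ZT1 replicates 2 and 3 and at 1.06 or less in the other libraries. Of 15 oligodendrocyte markers 12 were in the table, and of these Cldn11, Ermn, Olig1, Sox10 and Mal were at 0 in all 8 libraries. Mbp stood at 123 ± 21.7 and 135 ± 38.0 CPM and Cnp at 35.05 ± 3.09 and 30.9 ± 5.71. Mag stood at 1.83 ± 0.950 and 2.965 ± 1.785 CPM, and Mobp at 29.5 in ZT13 replicate 3 and 11.9 in ZT1 replicate 4. Of the 6 tested, 0 were higher and 1 lower at ZT13 at an unadjusted p under 0.05 in edgeR, and 0 passed after adjustment. This one, named after its values were seen, was Enpp2, at 2.13 ± 1.81 CPM at ZT1 and 0 in every ZT13 library, without overlap. The sum of the oligodendrocyte list was 143.1 to 207.7 CPM at ZT1 and 140.1 to 249.1 at ZT13, those of astrocytes and neurons at most 7.07, of lymphoid cells at most 24.9 and of endothelial and mural cells at most 24.8 CPM. Their part in the levels of the sterol and fatty acid genes was not tested.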

How the data were processed

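RNA was measured in 8 samples of sorted spinal cord neutrophils, 4 per time point. Per the labels' protocols, cDNA was amplified with SMART-Seq v4, Nextera XT libraries, which carry no strand, were prepared, and single reads of 50 bases were sequenced, and all samples are labelled as 1 batch. The authors deposited raw counts per gene, with Ensembl identifiers. The submitters' processing notes name FastQC, STAR 2.7.10b, featureCounts of Subread 2.0.3, DESeq2 1.46.0 and GRCm38. No source used here gives the annotation release or the counting options.

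Of 23369 rows, 22231 matched GENCODE M21 by identifier, and the 1138 others held 0.121% of counts. Genes passing edgeR's filterByExpr (minimum count 10, minimum total 15) were 12610. ZT13 was compared with ZT1 by edgeR's quasi-likelihood test (edgeR 4.0.16, R 4.3.3) with TMM factors and Benjamini-Hochberg adjustment over all 12610 genes at 0.05. Standard errors are the log2 fold change over the root of F. DESeq2 1.42.0, limma-voom (limma 3.58.1), other scalings and filters, replicate blocks and leaving out each library were alternatives. The edgeR script was tested on simulated data. TPM-like levels used the summed exon length, and sharing was counted over 50-base windows of the longest transcript. The members and gene lists were chosen with earlier results of these data known. All members may be named, and of each further list the genes past the threshold, the 3 with the smallest p and the most abundant per length, and of marker lists the 2 most abundant and defining genes at 0. Some genes that this rule names are not reported here.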

Additional observations from a re-analysis of the deposited data

Results flagged for a closer look

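Of 82 groups of 4 libraries checked, 1 held a library far from the others by Dixon's criterion at 95%. Acly in ZT13 replicate 4 stood at 401.8 CPM, while the other 3 ZT13 libraries lay between 347.2 and 355.8, a gap of 0.841 of the group's range, past the critical value for 4 libraries. Chance alone marks about 1 group in 20. The log2 fold change of Acly was -0.18 with all libraries and -0.23 with this one left out.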

How the results depend on the processing

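In all 18 alternative fits 0 values of the 31 tested members passed the threshold. Among members that kept their sign, single libraries moved Lss from -1.05 to -0.04 and Mvk from 0.19 to 1.01. They also moved Scap from -0.55 to -0.06, Scd2 from -0.55 to -0.12, Cyp51 from -0.34 to -0.07 and Fasn from -0.47 to -0.12. With voom Lss stood at -2.21. Over all genes edgeR called 0 and DESeq2 256. Members without overlap between the groups numbered 1, and 1 to 3 when single libraries were left out (2 without ZT1 replicate 2 and 3 without ZT13 replicate 4). Groups of 3 and 4 libraries separate more easily than groups of 4 and 4. The share over all genes was not counted for these splits, so the rise cannot be read as a result about the members. The sterol genes with a larger CV at ZT13, a count added after seeing the data, numbered 15 of 16 under every scaling tried and 14 to 16 with 1 library left out. The sign of the log2 fold change was the same in every alternative for 16 members and changed in at least 1 for 15, none of which exceeded 0.1615 in size with all libraries and the main settings; the cause was not tested. With single libraries left out, the lowest and highest log2 fold changes were -0.20 and 0.30 for Acat2, -0.24 and 0.0737 for Hmgcs1, -0.30 and 0.0143 for Idi1, -0.28 and 0.073 for Fdft1, -0.0854 and 0.23 for Sqle, -0.17 and 0.0363 for Msmo1, -0.14 and 0.11 for Sc5d, and -0.24 and 0.17 for Dhcr7. They were -0.28 and 0.051 for Srebf1, -0.11 and 0.0579 for Srebf2, -0.17 and 0.19 for Insig2, -0.46 and 0.21 for Acaca, -0.28 and 0.45 for Elovl6, -0.25 and 0.66 for Abca1, and -0.14 and 0.0718 for Abcg1. The sign also turned with quality-weighted voom (Acat2 -0.0774, Sqle -0.0012, Sc5d -0.0471, Elovl6 -0.45), voom (Elovl6 -0.22), library totals (Sc5d -0.0511), no filter (Sc5d -0.0126, Abca1 -0.0083), upper-quartile factors (Dhcr7 0.0148) and a filter at 5 CPM (Dhcr7 0.0149). The labels do not say that the numbers pair the samples. Same-numbered deviations correlated at -0.04 to 0.02 by title and at -6e-04 to 0.05 by library name. Of these only library number 4 correlated best with its own number. The deviations were taken from means of only 4 libraries, so a weak pairing could go unseen. A replicate block by title called 0 genes (972 at an unadjusted p under 0.05, against 1160) and turned Sc5d (-0.0122) and Elovl6 (-0.17). A replicate block by library name called 0 (1193) and turned Sqle (-0.053), Srebf2 (0.15), Elovl6 (-0.0912) and Abcg1 (0.16). Members at an unadjusted p under 0.05 and lower at ZT13 numbered 2, 1 with a filter at 5 CPM, 1 with the block by title and 0 to 3 with single libraries left out. Fdps had 54 to 109 counts per library and Scd1 0 in 7 of 8, where counting error is widest.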
